A study of Rattus with 18 samples.

Results

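The time course of gene expression after infarction was examined in hearts that did not carry the agent label iECM, an infusible extracellular matrix. Samples with the agent label control were taken, 4 labelled day 3 and 4 labelled day 1, which makes 8 of the 18 samples in the series. Each is infarcted left ventricular free wall of a Sprague-Dawley rat, collected after a 35 min myocardial infarction. The labels state neither sex nor age. Nothing in them says that separate animals were used, so p-values cover the spread among samples, which may be technical, and a sample is called a heart here. The treatment text names iECM for all 18 samples, yet 8 carry control as their agent. The grouping follows the agent label, and what the control hearts were given is not stated. The remaining samples are 5 iECM hearts at day 3 and 5 at day 1.

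With an immunology panel, RNA was counted by hybridization of barcoded probes with a reporter code set and a capture probe set, from 50 to 100 ng of RNA per sample. The input of each heart is not given. Of the numbered rows, 380 were taken as gene probes, 6 as positive-control rows, which in such panels detect added RNA, and 8 as negative-control rows, which detect background. The control rows were recognised from their values. The files do not pair rows with gene names, so no gene is named, and cardiac or immune cell markers could not be looked up. Only 4 rows are given by number, the 2 that rose most and the 2 that fell most among called probes that did not overlap between the days and stayed called with each control heart left out.

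As background, a reperfused or permanent infarct in rodents passes from an early phase rich in neutrophils and inflammatory cytokines to a phase in which monocytes and macrophages clear dead muscle and fibroblasts begin to lay down matrix. Immune panels of this kind are used to follow that passage. In RNA from whole tissue, fewer cells of a type and less RNA per cell cannot be told apart.

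Many probes changed between the days, and which direction was the more common depended on the scaling. In control hearts 169 of 371 probes tested changed (45.6%) by edgeR's quasi-likelihood test at an adjusted p under 0.05. Of these, 93 rose (25.1%) and 76 fell (20.5%), so that rises made up 55.0% of the calls. Under upper quartile scaling 48 rose and 180 fell, under the library sum alone 97 rose and 39 fell, and under the positive-control rows 241 rose and 2 fell. Fold changes are log2 values of day 3 over day 1 and, unless another scaling is named, were computed after scaling by trimmed mean of M-values (TMM), which assumes that most probes do not move together. The median over the risers was 0.81, with a highest value of 3.47, and the median over the fallers was -0.70, with a lowest value of -2.46. Over all 371 probes the median was -0.07, the middle 50% lay between -0.43 and 0.42, and the 10th and 90th percentiles were -0.77 and 1.04.

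Under TMM scaling large changes were mostly rises. Past a 2-fold change there were 38 probes higher and 21 lower at day 3, and past a 4-fold change 13 higher and 4 lower. All 13 of those higher probes were called, and 2 of the 4 lower ones. Of the 10 largest changes 9 were rises, and of the 50 largest 34 were. Measured from the median of all probes instead, 10 of the 10 largest and 37 of the 50 largest were rises. When the test asked for a change of more than 1.5-fold, 47 probes passed (12.7%), of which 36 rose (9.7%) and 11 fell (2.96%), by edgeR with Benjamini-Hochberg adjustment. This split turned with the scaling, with 18 rising and 29 falling under the upper quartile, and 170 rising and 1 falling under the positive-control rows. Without day 3 heart 3 the count of 47 became 30, and limma voom gave 24.

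**Figure D1:**
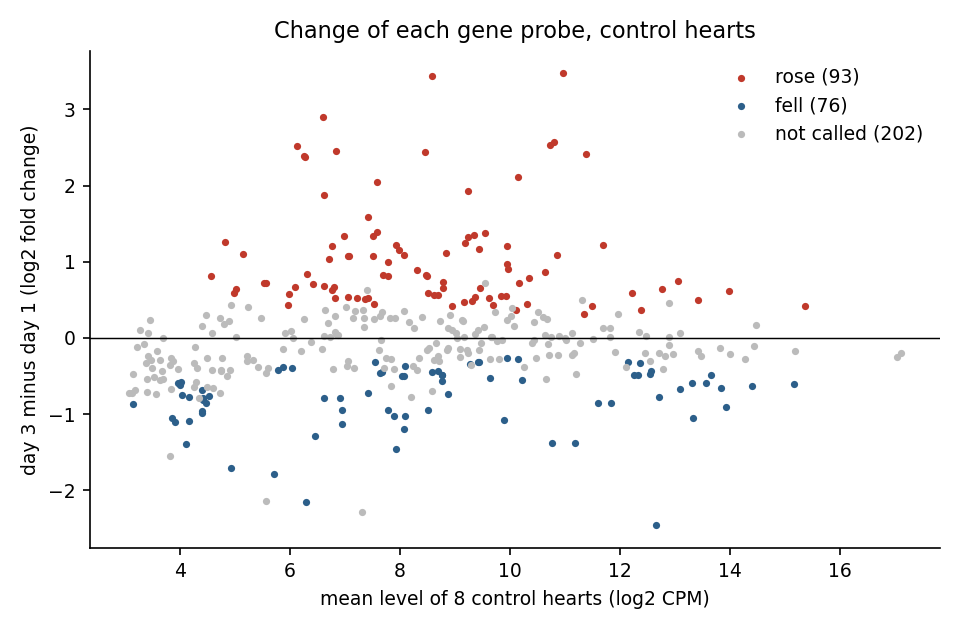
Log2 fold change of day 3 over day 1 in control hearts (vertical axis) against the mean level of the 8 hearts in log2 CPM (counts per 1000000 of the scaled gene count, horizontal axis), 1 point per gene probe. The 93 risers reach 3.47, the 76 fallers reach -2.46, and points at the lowest levels lie mostly below 0.

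The probe in row 147 had the largest rise. In CPM, counts per 1000000 of the scaled gene count, it stood at 6349, 6445, 7763 and 6472 CPM in the 4 day 3 hearts, against 383, 685, 575 and 787 CPM in the 4 day 1 hearts. The groups were far apart, and the lowest day 3 heart was above every day 1 heart. Lack of overlap was a condition for naming any of the 4 rows, so it is not a separate result for them. The mean was 6757 ± 673 CPM at day 3 and 608 ± 173 CPM at day 1 (SD, n = 4 each), a log2 change of 3.47 with a standard error of 0.28 (edgeR adjusted p = 5.22e-08). The 95% interval ran from 2.89 to 4.05.

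Row 93 had nearly the same fold at a lower count. It stood at 1077, 810, 1724 and 1608 CPM in the day 3 hearts, against 127, 80.1, 105 and 165 CPM in the day 1 hearts. The day 3 hearts fell into a lower pair, hearts 1 and 2, and a higher pair, hearts 3 and 4, and all were above day 1. The log2 change was 3.44 (standard error 0.30, edgeR adjusted p = 1.08e-07), with a 95% interval from 2.82 to 4.07.

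The probe in row 310 had the largest fall. It stood at 2831, 3385, 2765 and 2521 CPM in the day 3 hearts, against 9418, 25077, 12489 and 16284 CPM in the day 1 hearts. The day 3 hearts lay close together, whereas the highest day 1 heart was well above the lowest, and the groups did not overlap. The coefficient of variation was 12.7% at day 3 and 42.9% at day 1. The log2 change was -2.46 (standard error 0.34, edgeR adjusted p = 2.75e-05), with a 95% interval from -3.18 to -1.74. Its share of the gene count was 0.300% on average at day 3 and 1.54% at day 1.

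Row 273 was a low-count probe whose size of change rested on 1 heart. Its raw counts were 40, 76, 59 and 81 in the day 3 hearts, against 55, 451, 73 and 143 in the day 1 hearts, and these raw counts overlap. After scaling it stood at 24.1, 65.1, 34.2 and 51.0 CPM at day 3, against 72.9, 475, 98.6 and 118 CPM at day 1. The scaled groups did not overlap, but day 1 heart 2 was several times above the other day 1 hearts. The log2 change was -2.15 (standard error 0.53, edgeR adjusted p = 0.00454). Without day 1 heart 2 the log2 change of row 273 was -1.22.

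**Figure D2:**
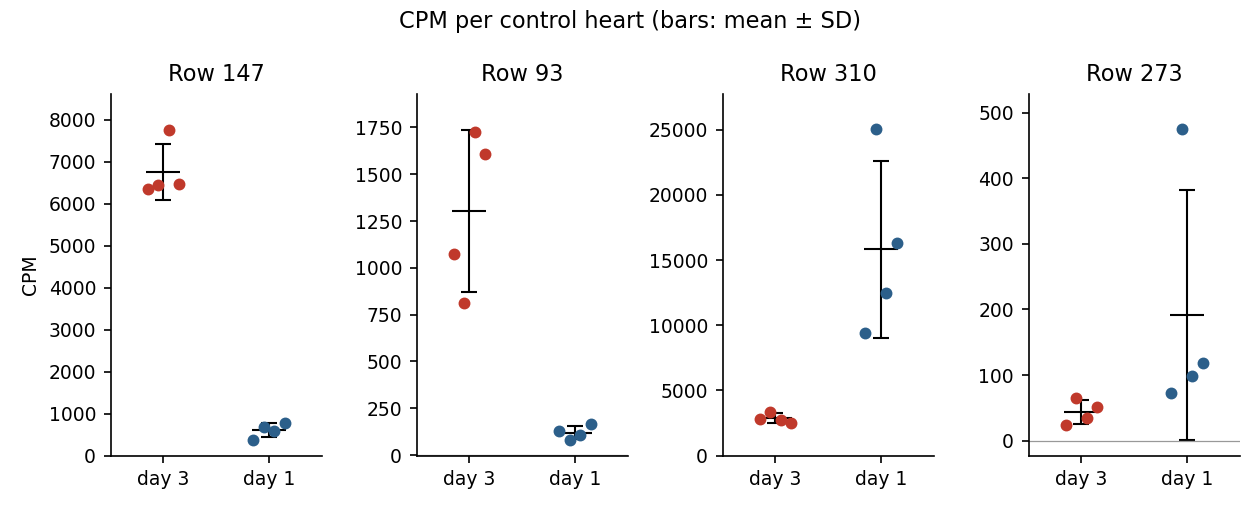
CPM in each control heart (vertical axes, a separate linear scale for each row) for the 2 rows that rose most and the 2 that fell most among called probes without overlap, day 3 left of day 1. Points are hearts and bars are the mean with SD. The days do not overlap in any of the 4 rows because this was a condition for choosing them. In row 273 a single day 1 heart at 475 CPM carries most of the day 1 mean.

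The ratio of 2 probes within a heart needs no scaling between hearts. The raw count of row 147 divided by that of row 310 lay between 1.90 and 2.81 in the day 3 hearts and between 0.0273 and 0.0483 in the day 1 hearts. The lowest day 3 ratio was 39.4 times the highest day 1 ratio. The 2 rows were picked as the largest rise and the largest fall in these same hearts. A wide gap follows from that choice, so the ratio is not separate evidence of a change. The level of a ratio also depends on how well each probe binds, so only its change between the days is given.

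Most of the called probes separated the days completely. Groups did not overlap for 155 of 371 probes (41.8%), with 88 higher (23.7%) and 67 lower (18.1%) at day 3. Of the 93 risers 79 did not overlap, and of the 76 fallers 57 did not. The other 33 called probes had at least 1 heart within the range of the other day, and 19 probes that did not overlap were not called. Probes were called on the day difference in these same hearts, so lack of overlap among them is not separate evidence of a change. With each of the 8 hearts left out in turn, 61 of the risers and 44 of the fallers were called the same way in all 8 fits. The number called in these fits ran between 121 and 168.

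A probe that was not called was not always shown to be stable. Under TMM scaling, 83 of 202 probes not called had a 95% interval that excluded a 1.5-fold rise or fall. For 163 of the 202 it excluded a 2-fold rise or fall. The remaining 39 leave room for a 2-fold change. Another scaling moves these intervals: the median of all probes was 1.07 under the positive-control rows, beside -0.07 under TMM. The counts therefore do not show stability under other scalings. The median standard error over all probes was 0.19 on the log2 scale.

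The whole composition of the gene count differed more between the days than within them. Between the mean profiles of the days, 11.8% of the gene count sat on different probes. Pairs of 1 day 3 and 1 day 1 heart differed in 14.2% of their counts on average (16 pairs, 10.4% to 19.4%). Pairs within day 3 differed in 7.46% (6 pairs, 4.98% to 10.2%), and pairs within day 1 in 9.26% (6 pairs, 5.10% to 14.1%). The mean between days exceeded the mean within days by 5.86 percentage points (exact one-sided permutation p = 0.0286 over hearts, n = 4 each, the smallest value this design allows). The ranges overlap, since day 1 hearts 1 and 2 differed in 14.1% of their counts. Shares of the gene count were higher at day 3 in 195 rows and lower in 185. The 10 rows with the largest gains held 53.4% of all gains, and the 10 with the largest losses held 65.2% of all losses.

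Day 1 hearts varied more among themselves than day 3 hearts on most probes. The SD of log2 CPM among 4 hearts had a median of 0.18 at day 3 and 0.27 at day 1. The day 1 SD was the larger of the pair for 244 of 371 probes. Among the 279 probes above background in all 8 hearts it was the larger for 189, with medians of 0.16 at day 3 and 0.23 at day 1. The difference is a description and was not tested. Of the 4 day 1 hearts, heart 1 lay farthest from the group mean on 147 probes and heart 2 on 135, against 42 for heart 3 and 47 for heart 4. Without day 1 heart 1 the day 1 SD was the larger for 201 probes, and without heart 2 for 210. At day 3, heart 2 was the farthest on 144 probes and heart 4 on 30.

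**Figure D3:**
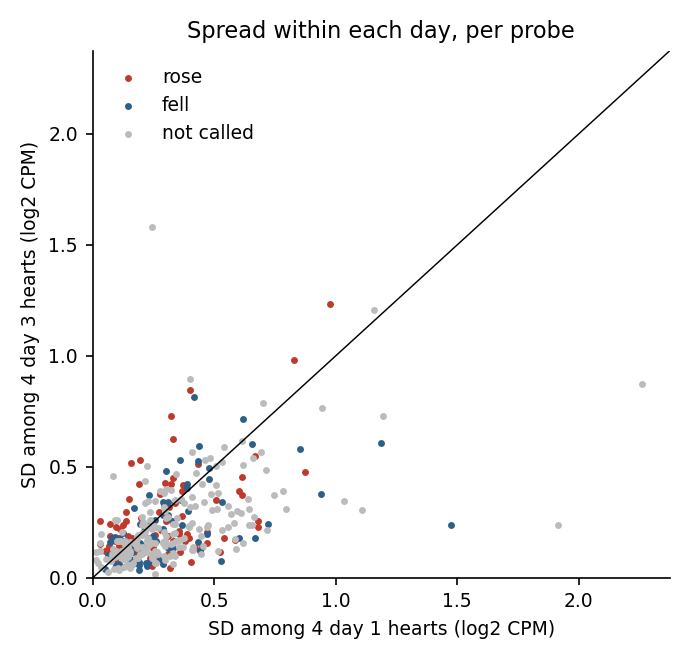
SD of log2 CPM among the 4 day 3 hearts (vertical axis) against the SD among the 4 day 1 hearts (horizontal axis), 1 point per probe, coloured by call. The line marks equal SD, and 244 of 371 points lie on its day 1 side.

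The change differed between count levels under TMM scaling. In the lowest of 3 groups of probes by level (124 probes, up to 6.83 log2 CPM), the median log2 change was -0.30, and 23 rose and 25 fell. In the middle group (123 probes) the median was 0.10, and 39 rose and 25 fell. In the highest group (124 probes, from 9.44 log2 CPM) it was -0.02, and 31 rose and 26 fell. The calls made up 38.7%, 52.0% and 46.0% of the low, middle and high group, beside 45.6% over all probes. The median standard error was 0.24 in the low group and 0.16 in the high group.

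Some of the low group was background. The limit was 2 SD above the mean of each heart's negative-control rows, and it lay between 28.5 and 33.5 counts at day 3 and between 28.4 and 30.1 counts at day 1. The probes above it numbered 301 to 320 in the day 3 hearts and 285 to 309 in the day 1 hearts. There were 41 tested probes that were above background in none of the 8 hearts. Their summed raw count was 591 to 640 at day 3 and 468 to 641 at day 1, a ratio of day means of 1.15, where the gene count had 1.55. Their median log2 change after scaling was -0.54. Of these 41 probes 10 fell, or 24.4%, beside 20.5% of all probes, and 0 rose, beside 25.1% of all probes. The 41 were chosen for staying under the limit at both days, so a probe rising past it could not be among them. The 0 rises follow in part from that choice. After subtraction of background only 4 of the 41 were left to test, so at most 4 of the 10 fallers could be called, and 0 were. How many of the 10 were among those 4 is not given. The remaining fallers could not be called whatever their change. Refitting with only probes above background gave 76 rises and 80 falls, and refitting with background subtracted gave 85 rises and 82 falls.

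The last 6 rows of the table stand after the control rows, and nothing in the files says why. All 6 were tested, 2 rose, 2 fell and 2 were not called by edgeR's quasi-likelihood test, where 45.6% of all probes were called. Their log2 changes ran between -0.79 and 2.44, with a median of 0.05. The 2.44 belonged to 1 row, and the next highest change was 0.61. The 6 rows were also tried as a basis for scaling.

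The depth of counting differed between the days and bears on every scaled value. The summed gene count was 1687688, 1083285, 1617938 and 1528314 in the day 3 hearts, against 816397, 905210, 854984 and 1236864 in the day 1 hearts. The days overlapped through day 3 heart 2 and day 1 heart 4. The mean was 1.55 times higher at day 3, by 525942 counts. The exact permutation test gave p = 0.0571 (two-sided, n = 4 each), where the smallest p that 4 against 4 allows is 0.0286. The median count per gene probe did not overlap, at 325 to 552 counts in the day 3 hearts and 173 to 316 in the day 1 hearts (p = 0.0286 by the same exact test).

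The positive-control rows went the other way in 3 of the 4 day 3 hearts. Their sum was 42875, 79383, 52243 and 59049 counts in the day 3 hearts, against 66343, 81441, 75896 and 69432 counts in the day 1 hearts. Day 3 hearts 1, 3 and 4 were below every day 1 heart, while day 3 heart 2 was above 3 of them. The difference of means, -14890.5 counts, was not past the threshold (p = 0.143 by the same exact test). Without day 3 heart 1 it was -9719.67 counts (exact p = 0.286), and without day 3 heart 2 it was -21889 counts (exact p = 0.0571, the smallest that 3 against 4 allows). The same sum was 2.54%, 7.33%, 3.23% and 3.86% of the gene count in the day 3 hearts, against 8.13%, 9.00%, 8.88% and 5.61% in the day 1 hearts (exact two-sided permutation p = 0.0571). The amount of RNA hybridized per heart would also move this ratio, and its part was not tested.

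**Figure D4:**
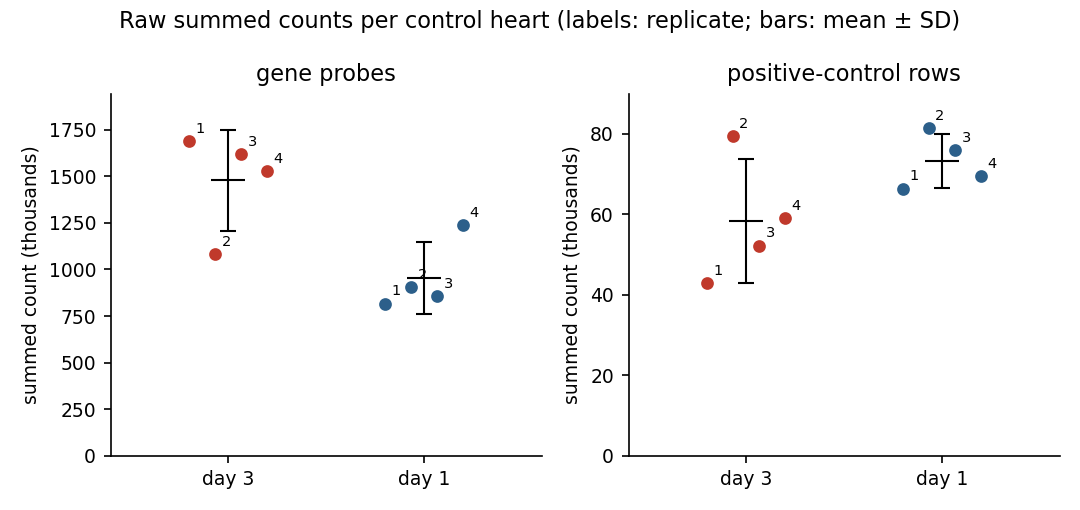
Raw summed count of the 380 gene probes (left panel) and of the 6 positive-control rows (right panel) in units of 1000 counts, day 3 left of day 1. Points are hearts labelled with their replicate number and bars are the mean with SD. Day 3 heart 2 lies among the day 1 hearts in both panels.

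The balance of rises and falls followed the scaling. Beyond the splits already given for the upper quartile, the library sum and the positive-control rows, scaling on the last 6 rows gave 56 rises and 147 falls. Of these 6 rows 1 rose by 2.44 under TMM, and how far it sets this split was not tested. Quantile normalization with limma gave 69 and 86, and DESeq2's size factors 96 and 85. These scalings move the median of all probes: it stood at -0.44 under the upper quartile, at 0.05 under the library sum and at 1.07 under the positive-control rows. Under the positive-control rows it was 1.28 without day 3 heart 2 and 1.23 without day 1 heart 4. Which of them is nearer to the amount of RNA per tissue was not tested and cannot be decided here, because the RNA input of each heart is not given.

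A continuous shift shows where the balance turns. Adding 0.1 on the log2 scale to every change gave 112 rises and 48 falls, and taking 0.1 away gave 76 rises and 108 falls. Adding 0.5 gave 181 and 11, and adding 1 gave 288 and 2. Each shift leaves the differences between probes as they are. The middle 50% of changes spanned 0.85 under TMM and between 0.74 and 0.86 under the other 7 scalings.

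**Figure D5:**
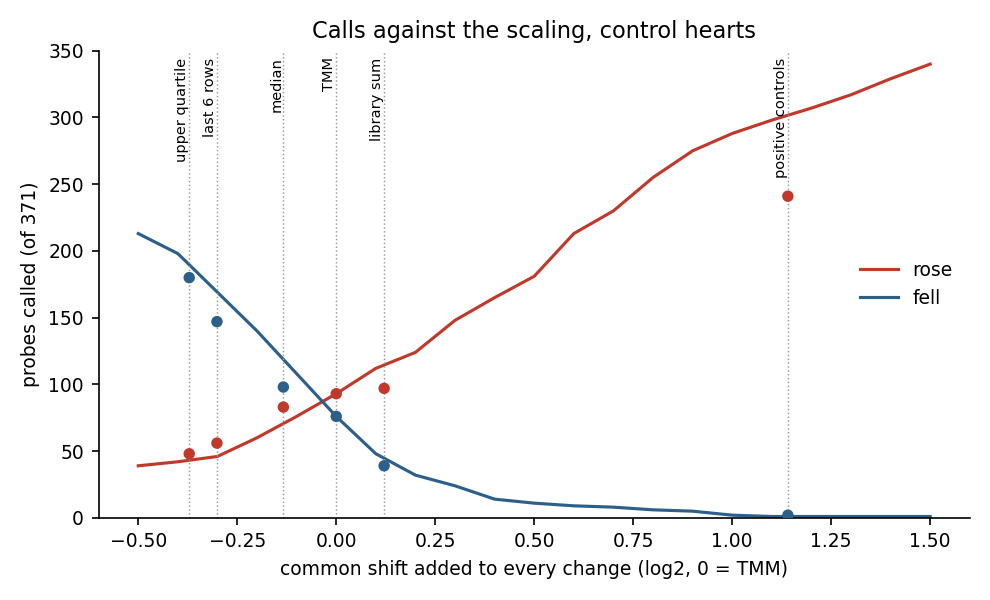
Number of the 371 probes called as rising or falling in control hearts (vertical axis) when a common shift is added to every log2 change (horizontal axis, 0 is TMM scaling). Points on dotted lines give the calls under named scalings, placed at their median change relative to TMM. The lines cross near 0, and under positive-control scaling 241 rise and 2 fall.

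Some calls held under every scaling tried. Under all 8 scalings 46 probes rose and 2 fell. Scaling on the positive-control rows without day 3 heart 2 left 1 faller. A common shift of 1.1 left 1 faller, and a shift of -0.5 left 39 risers. Under the 7 scalings that exclude the positive-control rows, 46 rose and 31 fell. No probe was called in opposite directions by 2 of these 7. With the positive-control scaling included, 66 probes were called rising under 1 scaling and falling under another. Rows 147, 93, 310 and 273 were called the same way under all 8 scalings. For row 273 the edgeR adjusted p was 0.0295 under the positive-control rows. Row 147 ranged between 3.12 and 4.57 and row 93 between 3.04 and 4.57. Row 310 ranged between -2.78 and -1.38 and row 273 between -2.45 and -1.14.

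The iECM hearts offer the same contrast in samples that the control comparison did not use, although all 18 samples share 1 estimate of the spread. Of the 93 control risers, 92 had a positive and of the 76 fallers 75 had a negative log2 change in iECM hearts. The share of all 371 probes with the same sign in both is not given. Without it these counts cannot show agreement particular to the called probes. These counts were made under TMM scaling. The iECM median over all probes was -0.09 under TMM and 1.02 under the positive-control rows, beside -0.07 and 1.07 in control hearts. Both contrasts move with the scaling, so the shared signs cannot show that the directions are free of it. The 68 probes that rose in both were 73.1% of the control risers and 94.4% of the 72 iECM risers (19.4% of 371 by edgeR). The 51 that fell in both were 67.1% of the control fallers and 62.2% of the 82 iECM fallers (22.1%). The risers had a median log2 change of 0.77 in iECM hearts and 0.81 in control hearts, and the fallers -0.51 in iECM hearts and -0.70 in control hearts. The values were smaller in iECM hearts for 59 of the risers and 51 of the fallers. Probes chosen for passing a test in control hearts can be larger there for that reason alone.

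No difference of the change between the agents was called. edgeR's quasi-likelihood test of the interaction called 0 of 371 probes (0%), and DESeq2, limma-trend and limma voom also called 0. In the edgeR test 10 probes had an unadjusted p under 0.05, fewer than that threshold passes by chance when no probe differs. The smallest edgeR adjusted p was 0.928. Of the 169 probes called in control hearts, 129 had a 95% interval for the difference inside 2-fold, and the other 40 leave room for one. For row 310, iECM hearts changed by -3.30 and control hearts by -2.46, and the 95% interval of the difference ran from -1.75 to 0.07.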

How the data were processed

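The authors deposited a value table of whole-number counts per numbered row, read as raw counts because totals differ between samples. The sources used here do not give how it was made or what its rows detect. The other deposited tables hold no comparison of days and were not used. Gene probes were filtered with edgeR 4.0.16 (filterByExpr, minimum count 10, 371 of 380 kept), scaled by TMM and tested by quasi-likelihood over all 18 samples, with a mean for each of the 4 groups (14 residual degrees of freedom). Calls used a Benjamini-Hochberg adjusted p under 0.05. The minimum-fold test was glmTreat at 1.5-fold. Standard errors are the log2 change over the square root of F. CPM are counts per 1000000 of the scaled gene total, and log2 CPM used a prior count of 2. The interval limits are 95%.

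The gene count per control heart was 816397 to 1687688. Of 28 pairs of control hearts none was identical, with a chi-square per degree of freedom of at least 28.3. Alternatives used DESeq2 1.42.0 and limma 3.58.1. The steps were tested on simulated data. The labels give no cartridge, lane or date. Rows were named by a rule: the 2 largest rises and 2 largest falls among calls that do not overlap and hold with each control heart left out. The samples, lists and rules were chosen with earlier results of these data known.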

Additional observations from a re-analysis of the deposited data

Results flagged for a closer look

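Of 24 groups of 4 hearts examined, 2 had a heart far from the other 3 by Dixon's test, and about 1 in 20 is flagged by chance. Row 147 stood at 7763 CPM in day 3 heart 3, above 6349 to 6472 CPM in the other day 3 hearts. Row 273 stood at 475 CPM in day 1 heart 2, above 72.9 to 118 CPM in the other day 1 hearts.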

How the results depend on the processing

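The number of probes called stayed within 1.5 times of 169 under each of 23 other settings, from 121 to 243. The interaction count was 0 under all 22 settings that allow it. The balance moved with the scaling: rises were 21.1% of calls under the upper quartile, 27.6% under the last 6 rows, 44.5% under quantile normalization with limma, 45.9% under the median, 71.3% under the library sum and 99.2% under the positive-control rows. Runs of the positive-control scaling without 1 heart, chosen after seeing the data, gave 304 calls and 99.7% without day 3 heart 2, and 279 calls and 99.3% without day 1 heart 4. The count past 1.5-fold was 171 under positive-control scaling, 24 under quantile normalization with limma, which changes scaling and tool together, 30 with DESeq2, 27 with limma-trend and 24 with limma voom. The interquartile range of changes was 0.74 under quantile normalization with limma and 0.95 with background subtracted. The cause was not tested.

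With 1 control heart left out, calls ran from 121 to 168, the share of rises from 47.6% to 60.8%, the count past 1.5-fold from 30 to 50 and the interquartile range from 0.788 to 0.938. The difference in summed gene count ran from 456482 to 657950 and that in summed positive-control count from -21889 to -9719.67 (p from 0.0571 to 0.286 by exact permutation), and 3 against 4 hearts cannot reach p under 0.05. Row 273 ran from -2.52 to -1.22. No paired analysis was possible because no label ties a day 3 heart to a day 1 heart. The geometric mean of gene counts was not run, since 1 count was 0. Background and few hearts limit the 41 probes never above background.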
